A study of Mus musculus with 6 samples.

Results

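The genes described here encode the enzymes that make superoxide, hydrogen peroxide and nitric oxide in the colon, with their partner subunits: Duox2, Duoxa2, Nox1, Noxo1, Nox4, Nos2, Cybb, Cyba and Ncf1. They were found by their symbols among the gene probes of the array, and 20 probes carried 1 of the 9 names, out of 56605 gene probes for 37325 symbols. Expression was measured on tumor-bearing colon tissue from C57BL/6 mice of the colitis-associated colon cancer (CAC) mouse model, in which every mouse received azoxymethane (AOM, a carcinogen, 10 μg/g) by injection and then 2% dextran sodium sulfate (DSS, which injures the colon lining) in drinking water. The mice were male and 6 to 8 weeks old when purchased. Of the 6 tissue samples, 3 came from mice given RG@M-γ-CD and 3 from mice given PBS, and each was hybridized to 1 one-color Agilent array. RG@M-γ-CD is the host-guest complex of regorafenib (RG, a kinase inhibitor) with mannose-modified γ-cyclodextrin; the labels call it Rgnanomedicine, and the methods give oral doses of 30 μg/g of complex, with 10 μg/g of RG, over 21 days of treatment that 14 days of observation followed. The labels name the tissue colon tumor and the methods name colon tissue with tumors, so each value is an average over tumor, remaining mucosa, muscle and infiltrating cells. The study describes the 3 mice of a group as independent animals, and the labels give no cage or day of preparation.

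The NADPH oxidases move electrons from NADPH across a membrane onto oxygen. Nox1 and Duox2 are the forms of the colon epithelium, with Noxo1 as organizer of the first and Duoxa2 as the maturation factor that brings the second to the cell surface. Cybb (also called Nox2 or gp91phox) is the catalytic subunit in phagocytes, Cyba (p22phox) is the membrane partner that it shares with Nox1 and Nox4, and Ncf1 (p47phox) is its cytosolic organizer. Nos2, the inducible nitric oxide synthase, makes nitric oxide from arginine in epithelium and macrophages that have met microbial products or inflammatory cytokines. Duox2, Duoxa2, Nox1 and Nos2 are known to be induced in inflamed colon.

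The labels assign arrays 5, 6 and 7 to RG@M-γ-CD and arrays 8, 10 and 11 to PBS. A clustered heat map among the supplementary figures of the study draws arrays 6, 7 and 8 beside one another and arrays 5, 10 and 11 beside one another, without naming their conditions. Arrays 5 (RG@M-γ-CD replicate 1) and 8 (PBS replicate 1) therefore have an uncertain place, and the change of each member gene is given by the labels, without these 2 arrays, and as arrays 6, 7 and 8 minus arrays 5, 10 and 11 (the heat map order). Further probes and the genes of other lists are given by the labels unless the heat map order is named. The share of gene probes marked as well above background ran from 49.6% to 55.2% per array, and values of different arrays correlated at r = 0.94 to 0.99 over probes. Of 10 markers of colon epithelium, all were above background, and their mean level lay between 5.47 and 6.12 on every array. Smooth muscle and fibroblast markers spread more widely over the RG@M-γ-CD arrays than over the PBS arrays, with mean levels of 3.16, 4.67 and 4.96 on replicates 1, 2 and 3 against 3.70 to 3.91 in PBS. Throughout, a level is the log2 of an intensity minus the 75th percentile of the gene probes of its array, so levels of different probes are not comparable with each other.

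Where the pairs of partner genes lie in the genome is shown first, because Duox2 and Duoxa2 are neighbors and because Cybb and Ncf1 gave the most similar patterns among the 28 pairs of member genes. Duox2 (chr2:122279246-122298740, minus strand) and Duoxa2 (chr2:122298900-122302885, plus strand) point away from each other in the RefSeq annotation of GRCm38.p6. The 159 bases between the 2 gene models, chr2:122298741-122298899 on the plus strand, which reads towards Duoxa2, hold 1 TATAAA, shown in capitals.
Duox2-Duoxa2: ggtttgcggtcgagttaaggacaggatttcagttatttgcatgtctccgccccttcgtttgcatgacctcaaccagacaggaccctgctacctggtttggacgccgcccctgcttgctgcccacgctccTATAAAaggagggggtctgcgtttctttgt

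For Cybb and Ncf1 the 250 bases before the start site of the RefSeq promoter table are printed on the strand of the gene, at chrX:9469325-9469574 and chr5:134229626-134229875 (GRCm38.p6, both minus strand). Capitals mark every match, on either strand, of letters for IRF (GAAA and GAAA with any 2 bases between them), STAT (TTCNNNGAA) and AP-1 (TGANTCA), and PU.1 (GAGGAAG), NF-kB and TATAAA were searched too.
Cybb: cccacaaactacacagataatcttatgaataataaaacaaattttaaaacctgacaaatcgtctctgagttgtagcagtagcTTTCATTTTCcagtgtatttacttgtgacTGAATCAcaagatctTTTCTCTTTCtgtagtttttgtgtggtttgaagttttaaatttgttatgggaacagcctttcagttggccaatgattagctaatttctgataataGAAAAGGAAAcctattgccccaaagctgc
Ncf1: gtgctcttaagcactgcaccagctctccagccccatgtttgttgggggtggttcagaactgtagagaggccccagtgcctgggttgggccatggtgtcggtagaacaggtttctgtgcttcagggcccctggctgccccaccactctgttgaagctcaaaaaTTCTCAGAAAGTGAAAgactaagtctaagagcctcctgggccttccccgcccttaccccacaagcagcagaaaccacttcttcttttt
The Cybb stretch held 3 IRF matches and 1 AP-1 match, and the Ncf1 stretch held 1 IRF match that overlapped 1 STAT match. Among 32851 mouse promoters of the same length, 2.98% held at least 1 IRF match, 7.02% a STAT match and 6.75% an AP-1 match. Of the other members with a promoter in the RefSeq table, Nox1 had an NF-kB match (7.25% of all promoters) and a PU.1 match (10.6%), Nox4 had a STAT match, Duoxa2 had an AP-1 match besides its TATAAA (12.4%), and Duox2, Noxo1 and Cyba had none. The windows of Cybb, Duox2, Nox1 and Nox4 lie inside the gene models of the annotation, so that for Duox2 the window is neither upstream of its model nor part of the stretch printed above. Such matches are only letters in a window of 8 promoters and say nothing of binding in this tissue.

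Gene expression on an array is read through 60-base probes. The first 30 bases of the probe that represents each of the 4 genes with the lowest levels in RG@M-γ-CD relative to PBS are given here, 5′ to 3′ as the array files list them, to show what was hybridized.
Nos2 A_55_P2158741: caccatgccgccgctctaatacttagctgc
Duoxa2 A_51_P365744: aaatattaccactctcctgtgaaaataact
Duox2 A_66_P134717: tttgcgatgtatagcaaggagaggaaagcc
Nox1 A_55_P1997906: ggttttcttatgtggccctcggactttggc
The array files place these probes, in mm9 coordinates, at chr11:78773567-78773626 (Nos2), chr2:122128112-122128171 (Duoxa2), chr2:122105952-122106011 (Duox2) and chrX:130621740-130621799 (Nox1). An mm9 gene annotation was not used here, so the exon or UTR under each probe is not given.

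Nos2 had the largest difference among the members, and Duox2 and Nox1 were also lower on every RG@M-γ-CD array than on every PBS array. Of the 9 genes, 8 had a probe above background on all arrays of a group and entered the test of 19090 genes. Of these, 7 lay lower in RG@M-γ-CD, with a median log2 difference of -0.66 over the 8 genes beside -0.01 over all genes tested. Over the whole array, 10087 of the 19090 genes lay lower. None of the 8 passed the adjusted threshold of 0.05 in limma (adjusted p = 1.0 for each), and 0 of all 19090 genes did (0.00%), the smallest adjusted p being 0.818. At an unadjusted p under 0.05, 3 of the 8 were lower (Nos2, Nox1 and Duox2) where 419 of all genes (2.19%) passed in either direction. The same 3 were those whose groups did not overlap, beside 872 genes (4.57%) on the whole array. The members were chosen with results of these arrays known, so these shares describe them and are not a test. Without arrays 5 and 8, the median was -0.69 and again none passed the adjusted threshold.

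**Figure D1:**
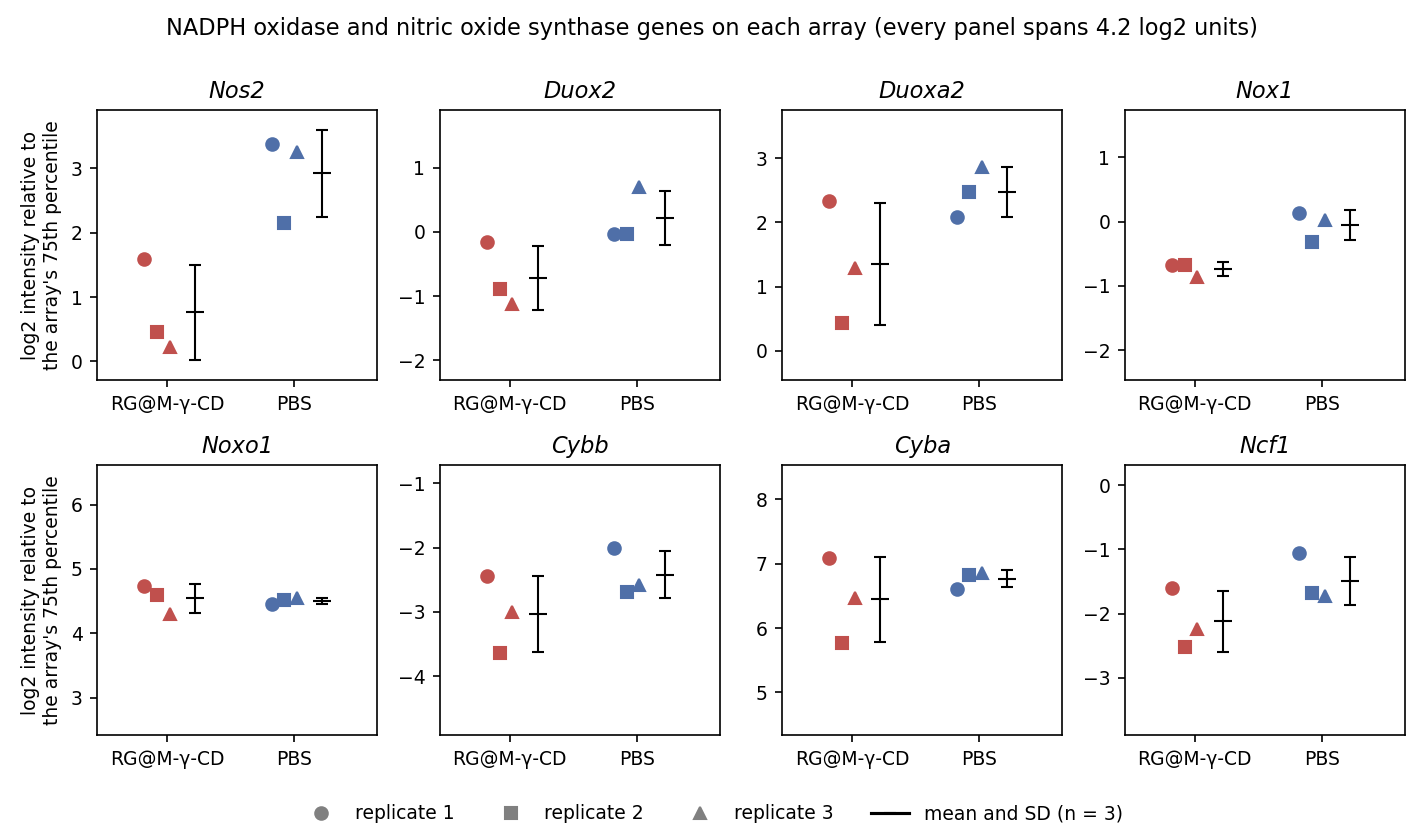
Levels of 8 genes on each of the 6 arrays (y axis: log2 intensity relative to the 75th percentile of the array; x axis: group), with red points for RG@M-γ-CD, blue points for PBS, point shapes for replicate numbers, and bars for the mean and SD of 3 arrays. Nos2, Duox2 and Nox1 had every red point below every blue point, the red circle of Duoxa2 and Cyba (RG@M-γ-CD replicate 1) lay among or above the blue points, and Noxo1 spanned only 0.44 log2 units.

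Nos2 makes the high output of nitric oxide in inflamed tissue. Its level was 1.60, 0.45 and 0.23 on the RG@M-γ-CD arrays and 3.38, 2.15 and 3.25 on the PBS arrays. Every RG@M-γ-CD array was below the lowest PBS array, with RG@M-γ-CD replicate 1 and PBS replicate 2 the closest. The means were 0.76 ± 0.73 and 2.92 ± 0.68 (SD, n = 3 each), a 4.48-fold lower intensity in RG@M-γ-CD. The log2 difference was -2.16 with a standard error of 0.47 and an unadjusted p of 0.00313 in limma, which did not pass the adjustment (adjusted p = 1.0). Without arrays 5 and 8 it was -2.36 (SE 0.40, adjusted p = 0.123 in limma). Leaving out RG@M-γ-CD replicate 1 alone gave -2.58 and the smallest adjusted p of Nos2 over all alternatives, 0.0568. As arrays 6, 7 and 8 minus arrays 5, 10 and 11 it was -0.98 (SE 0.89, adjusted p = 0.522), with PBS replicate 1, the highest array of all, on the side of RG@M-γ-CD replicates 2 and 3. Of the 6 arrays, 4 lay on the first row of the slide (all RG@M-γ-CD and PBS replicate 1). A fit with the slide row as a block therefore compares RG@M-γ-CD with PBS replicate 1 alone, an array of uncertain place. PBS replicates 2 and 3 then add nothing to the difference, here and for the genes below. For Nos2 it was -2.62 (SE 0.69).

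Duox2 makes hydrogen peroxide at the apical face of the epithelium. Its level was -0.16, -0.88 and -1.11 in RG@M-γ-CD and -0.03, -0.03 and 0.70 in PBS. The groups did not overlap, but RG@M-γ-CD replicate 1 lay only 0.13 below the nearest PBS array. The difference was -0.93 (SE 0.33), 1.91-fold lower in RG@M-γ-CD, with an unadjusted p of 0.0265 and an adjusted p of 1.0 in limma. Without arrays 5 and 8 it was -1.33 (SE 0.30, adjusted p = 0.196), and with the heat map order -0.85 (SE 0.35, adjusted p = 0.302). With the slide row as a block (RG@M-γ-CD against PBS replicate 1) it was -0.69 (SE 0.48). A pair of further Duox2 probes gave -0.78 (SE 0.34) for A_51_P436977 and -0.89 (SE 0.39) for A_55_P1974760, both with overlapping groups. The 3 probes disagreed in the heat map order, where A_51_P436977 gave -0.15 and the others -0.85 and -0.93.

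Duoxa2 is needed for Duox2 to leave the endoplasmic reticulum. Its level was 2.33, 0.43 and 1.30 in RG@M-γ-CD and 2.09, 2.48 and 2.86 in PBS. RG@M-γ-CD replicate 1 lay above PBS replicate 1, and the other RG@M-γ-CD arrays lay below all PBS arrays. The difference was -1.12 (SE 0.49), 2.17-fold lower in RG@M-γ-CD, with an unadjusted p of 0.0575 in limma. Unlike Nos2, Duoxa2 was apart in the heat map order, at -1.28 (SE 0.41, adjusted p = 0.297), and without arrays 5 and 8 it was -1.80 (SE 0.35, adjusted p = 0.157). With the slide row as a block (RG@M-γ-CD against PBS replicate 1) it was -0.73 (SE 0.72). Over the 6 arrays Duoxa2 and Duox2 correlated at r = 0.88 (exact permutation p = 0.0194, adjusted over 28 pairs of members 0.109) and rho = 0.77 (exact permutation p = 0.103, adjusted 0.411). Without the 2 arrays farthest from the median of Duox2, r was 0.97. Over all 6 arrays, Duoxa2 with Cyba (r = 0.92) and Duox2 with Nos2 (r = 0.91) had a higher r than this neighboring pair. Without the 2 arrays farthest from the median of Duoxa2 and of Duox2, these r were 0.33 and 0.85. The arrays of both groups enter these correlations, and a group difference shared by a pair of genes adds to r.

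Nox1 is the main superoxide-producing oxidase of colon epithelium. Its level was -0.68, -0.67 and -0.87 in RG@M-γ-CD and 0.13, -0.32 and 0.03 in PBS. The RG@M-γ-CD arrays lay within 0.2 of each other and all below PBS. The difference was -0.68 (SE 0.18), 1.61-fold lower in RG@M-γ-CD, with an unadjusted p of 0.00737 and an adjusted p of 1.0 in limma. It was -0.62 (SE 0.22, adjusted p = 0.363) without arrays 5 and 8, and -0.15 (SE 0.31, adjusted p = 0.782) in the heat map order. With the slide row as a block (RG@M-γ-CD against PBS replicate 1) it was -0.86 (SE 0.24). A further Nox1 probe, A_55_P2741052, did not rise well above background on any of the arrays. Nox1 and Nos2 followed each other over the arrays at r = 0.96 (exact permutation p = 0.00556, adjusted 0.0778) and rho = 0.94 (adjusted 0.156), and r was 0.85 without the 2 arrays farthest from the median of Nox1.

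Noxo1, the organizer of the Nox1 complex, was the member that differed least. Its level was 4.73, 4.60 and 4.30 in RG@M-γ-CD and 4.46, 4.51 and 4.55 in PBS. The PBS arrays lay inside the range of the RG@M-γ-CD arrays. The difference was 0.03 with a standard error of 0.17. It turned to -0.085 without arrays 5 and 8 and to -0.15 in the heat map order. The slide row as a block (RG@M-γ-CD against PBS replicate 1) gave 0.084 (SE 0.25). Noxa1, the activator that works with Noxo1, had a difference of 0.01 (SE 0.20).

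Nox4, an oxidase of stromal and vascular cells that makes hydrogen peroxide, was close to the background of these arrays. Of its 4 probes, 3 did not rise well above background on any of the arrays. The fourth probe, A_66_P109751, was above background on 2 RG@M-γ-CD arrays and 1 PBS array, with values of -5.13, -3.21 and -4.14 in RG@M-γ-CD and -3.94, -4.35 and -4.62 in PBS. RG@M-γ-CD held both the highest and the lowest of these values. The gene was therefore not tested by the labels. In the heat map order it entered the test only because the probe was above background on arrays 6, 7 and 8, where it was high, so that its difference of 0.94 is a description with a direction that the filter fixed. The same holds for the difference of 0.81 without arrays 5 and 8.

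**Figure D2:**
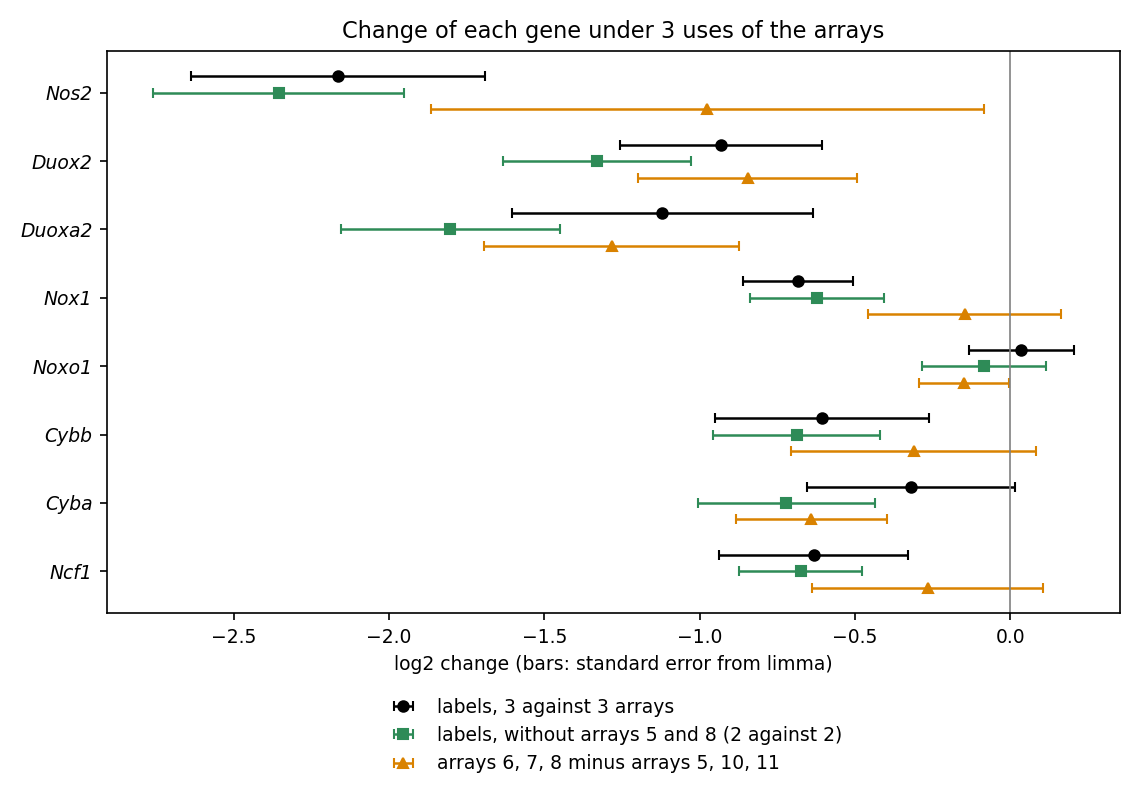
Log2 change of 8 genes (x axis, with standard error from limma) by the labels (black circles), by the labels without arrays 5 and 8 (green squares), and as arrays 6, 7 and 8 minus arrays 5, 10 and 11 (orange triangles). Nos2 was at -2.16 and -2.36 by the labels and at -0.98 in the heat map order, Nox1 moved from -0.68 to -0.15, and Duox2 and Duoxa2 lay at or below -0.85 in all 3.

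Cybb, the catalytic subunit of the phagocyte oxidase, was -2.44, -3.63 and -3.01 in RG@M-γ-CD and -2.003, -2.68 and -2.58 in PBS. RG@M-γ-CD replicate 1 lay above PBS replicates 2 and 3, and the groups overlapped. The difference was -0.61 (SE 0.34, unadjusted p = 0.126 in limma), and a further probe, A_55_P2082733, gave -0.52 (SE 0.48). Without arrays 5 and 8 the difference of Cybb was -0.69, and in the heat map order -0.31. With the slide row as a block (RG@M-γ-CD against PBS replicate 1) it was -1.02 (SE 0.47).

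Ncf1, which assembles the phagocyte oxidase on stimulation, was -1.61, -2.52 and -2.23 in RG@M-γ-CD and -1.06, -1.68 and -1.73 in PBS. Its order over the arrays was nearly that of Cybb, with PBS replicate 1 highest and RG@M-γ-CD replicate 2 lowest. The difference was -0.63 (SE 0.30, unadjusted p = 0.0788 in limma), and a further probe, A_51_P207031, gave -0.61 (SE 0.37). A probe for the noncoding transcript NR_104383 did not rise well above background anywhere. Without arrays 5 and 8 the difference was -0.67, and in the heat map order -0.27. With the slide row as a block (RG@M-γ-CD against PBS replicate 1) it was -1.06 (SE 0.39). Cybb and Ncf1 correlated at r = 0.98 (exact permutation p = 0.00278, adjusted 0.0778) and rho = 0.94 (adjusted 0.156), the highest r of the 28 pairs, and r was 0.94 without the 2 arrays farthest from the median of Cybb.

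Cyba, the membrane partner of Cybb, Nox1 and Nox4, was 7.09, 5.77 and 6.47 in RG@M-γ-CD and 6.61, 6.82 and 6.86 in PBS. RG@M-γ-CD replicate 1 was the highest array and the other 2 RG@M-γ-CD arrays the lowest. The difference was -0.32 (SE 0.33), and it moved to -0.72 without arrays 5 and 8 and to 0.015 without RG@M-γ-CD replicate 2. In the heat map order it was -0.64 (SE 0.24, adjusted p = 0.297 in limma) and the groups were apart. With the slide row as a block (RG@M-γ-CD against PBS replicate 1) it was -0.17 (SE 0.51). A second probe, A_66_P111502, gave -0.28 (SE 0.37) by the labels. The last one, A_55_P2736580, was above background on 0 RG@M-γ-CD and 2 PBS arrays and was not tested.

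**Figure D3:**
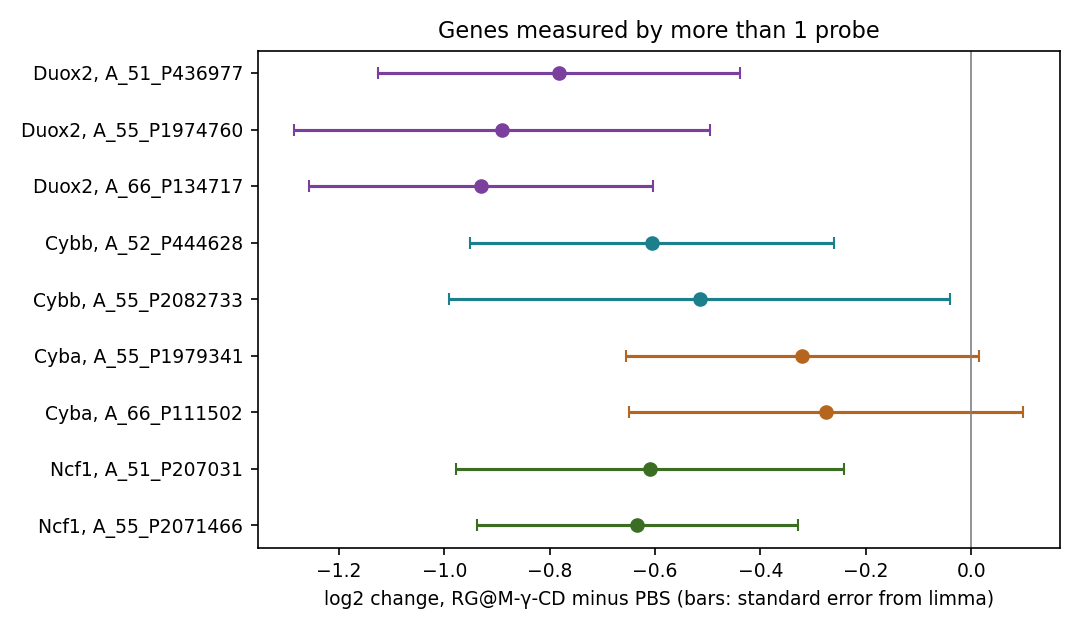
Log2 change, RG@M-γ-CD minus PBS (x axis, with standard error from limma), of each tested probe of Duox2, Cybb, Cyba and Ncf1. Probes of the same gene lay within 0.15 of each other, and all 9 probes were below 0, while the standard errors of both Cyba probes reached 0.

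Cybb and Ncf1 are genes of macrophages and neutrophils, and most of the fixed markers of these cells had a lower mean in RG@M-γ-CD, none past the adjusted threshold. In bulk tissue, fewer cells of a type and less RNA per cell cannot be told apart. All 12 macrophage and monocyte markers were lower in RG@M-γ-CD, 1 of them (Cd14, a receptor subunit for bacterial lipopolysaccharide, -0.41, unadjusted p = 0.0486 in limma) at an unadjusted p under 0.05 and none after adjustment. Their mean level was 2.34, 1.53 and 1.44 in RG@M-γ-CD and 2.31, 2.13 and 2.37 in PBS, and their median difference was -0.50. Of 8 tested neutrophil markers, 6 were lower and 2 higher, with a median difference of -1.02 and mean levels of 0.80, -1.22 and -0.71 in RG@M-γ-CD and 0.60, 0.17 and 0.92 in PBS. Camp, an antimicrobial peptide gene of neutrophils, was higher on every RG@M-γ-CD array, by 0.54. It passed the filter only through RG@M-γ-CD, where it was high, so this is a description with a direction that the filter favored. The marker Cxcr2 passed the filter only through PBS, or in the heat map order through arrays 5, 10 and 11, the side where it was high. Its differences of -1.79 by the labels and -1.73 in the heat map order thus have a direction that the filter favored. Cxcr2 and Camp enter the neutrophil counts, medians and mean levels by the labels and in the heat map order. Mpo and Ngp had no probe above background on all arrays of a group. In the heat map order 11 of the 12 macrophage and monocyte markers were lower, with a median of -0.62, and 6 of the 8 neutrophil markers, with a median of -1.21. The part of these cells in the values of Cybb and Ncf1 was not tested. Epithelial markers, which go with Nox1, Duox2, Duoxa2 and Noxo1, had a median difference of 0.03, with 7 of 10 higher and 3 lower and none at an unadjusted p under 0.05. Of the 10, 9 were lower in the heat map order, with a median of -0.20. Beside the marker counts by the labels, 10087 of all 19090 genes were lower, with a median of -0.01. Beside those in the heat map order, 12308 of all 19298 genes were lower, with a median of -0.12.

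**Figure D4:**
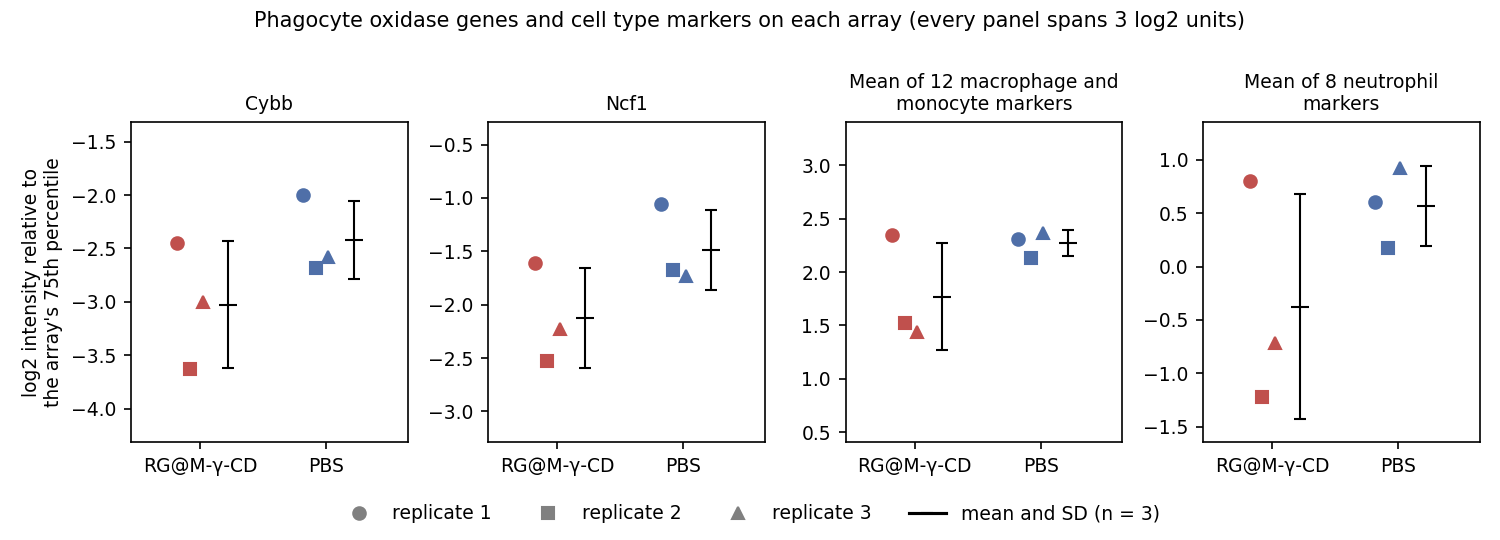
Levels of Cybb and Ncf1 and the mean levels of 12 macrophage and monocyte markers and 8 neutrophil markers on each array (y axis: log2 intensity relative to the 75th percentile of the array; bars: mean and SD of 3 arrays). RG@M-γ-CD replicates 2 and 3 were the lowest arrays in every panel, and RG@M-γ-CD replicate 1 lay within the range of PBS in all panels.

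Genes with the pattern most like Cybb and Duox2 were sought among 18111 genes above background on all 6 arrays, as a description over 6 points. The 5 highest Pearson r with Cybb were those of Cd53 (0.996), B430306N03Rik (0.996), Pld4 (0.990), Ip6k2 (0.988) and Smap2 (0.985). Cd53, a tetraspanin of white blood cells, was -2.11, -3.61 and -2.81 in RG@M-γ-CD and -1.52, -2.29 and -2.35 in PBS. For Duox2 they were H6pd (0.996), Plet1 (0.991), Tat (0.990), N4bp1 (0.988) and Ccl17 (0.978). H6pd, which makes NADPH in the endoplasmic reticulum, was 1.82, 1.46 and 1.36 in RG@M-γ-CD and 1.82, 1.86 and 2.25 in PBS. These r rest on 6 arrays of both groups, were picked as the highest among many genes, and carry no test.

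The remaining genes of the 2 enzyme families showed no difference past an unadjusted p of 0.05. Of 12 listed, 9 were tested, 6 lower and 3 higher, with a median of -0.14. In the heat map order 7 were lower, with a median of -0.16 beside -0.12 over all genes. Duox1, Nox3 and Nos1 had no probe that passed the filter. Duoxa1, the maturation factor of Duox1, was -0.81 (SE 0.61), with values from -4.27 to -1.69 in RG@M-γ-CD and from -2.37 to -1.93 in PBS. It passed the filter only through PBS, or in the heat map order through arrays 5, 10 and 11, the side where it was high. Its place among the lower genes is therefore a description with a direction that the filter favored. Among cytosolic partners of the phagocyte oxidase, Ncf4 was -0.53 (SE 0.33) and Rac2 -0.67 (SE 0.35), and the widely expressed Rac1 was -0.11 (SE 0.21). Cybc1, a chaperone for Cybb, was -0.14 (SE 0.16), and Hvcn1, the proton channel that supports the oxidase, -0.52 (SE 0.47). Nos3, the endothelial nitric oxide synthase, was 0.28 (SE 0.30).

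Genes that supply Nos2 or respond to its product did not pass the test either. Of 15 genes of arginine and nitric oxide metabolism, 14 were tested, 6 higher and 8 lower, with a median of -0.04 and 0 at an unadjusted p under 0.05. With the heat map order, 10 were lower, with a median of -0.19, and 4 stood at an unadjusted p under 0.05. Over the whole array in this order, 12308 of 19298 genes were lower, with a median of -0.12, and 3193 (16.5%) stood at an unadjusted p under 0.05. Slc7a1, an arginine importer, was lower on every RG@M-γ-CD array by a difference of only -0.21 (unadjusted p = 0.174 in limma). In the heat map order the Slc7a1 groups overlapped, at -0.10. Of 26 genes that remove superoxide or hydrogen peroxide or respond to NRF2, all were tested, 8 were higher and 18 lower, with a median of -0.04. In the heat map order 25 of the 26 were lower, beside 12308 of all 19298 genes, with a median of -0.29 beside -0.12 over all genes. At an unadjusted p under 0.05 stood 7 of them, beside 16.5% of all genes, and none passed the adjusted threshold. Hmox1, heme oxygenase, was 1.47, 0.39 and 1.19 in RG@M-γ-CD and 2.15, 1.77 and 1.81 in PBS. The groups did not overlap, and the difference was -0.89 (SE 0.30, unadjusted p = 0.024, adjusted p = 1.0 in limma). The Hmox1 groups overlapped in the heat map order, and its difference was then -0.44 (unadjusted p = 0.339 in limma). Cat, catalase, was apart in the opposite direction, by 0.19 (unadjusted p = 0.259 in limma). In the heat map order the Cat groups overlapped, at -0.02. By the labels, 872 genes (4.57%) were apart on the whole array. Of 5 peroxidases that use hydrogen peroxide, Lpo (0.10) and Pxdn (-0.38) were tested.

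With arrays 6, 7 and 8 set against arrays 5, 10 and 11, all 9 members entered the test of 19298 genes, and 8 were lower, with a median of -0.31 beside -0.12 over all genes. At an unadjusted p under 0.05 stood Duoxa2 and Cyba, both lower, where 3193 genes (16.5%) did on the whole array. Their groups did not overlap, beside 4914 genes (25.5%). Nox4, which passed the filter through the side where it was high, is the 1 member that was higher; it enters the median of 9 but not these counts of calls. In this order 5 genes passed the adjusted threshold in limma, and none was a member. The members that stood apart by the labels (Nos2, Nox1 and Duox2) and those that stood apart in the heat map order were different genes.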

How the data were processed

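Total RNA of colon tissue with tumors was labeled with Cy3 and hybridized to Agilent mouse arrays by the authors, and scanned arrays were read with Feature Extraction 10.7.1.1. The deposited files hold several intensities per spot. The intensity used in the main fit was corrected for background within the array and not normalized between arrays. The authors also deposited log2 values that have 1 distribution in all arrays, used here only as an alternative. Groups were taken from the sample labels. R 4.3.3 and the data.table package (1.17.8) served to read the files. Left out were control spots and, over the 6 arrays, 790 outlier spots (0 gene spots were saturated). Spots of a probe were averaged, and log2 intensities were set relative to the 75th percentile of each array. A probe entered the test if 1 of the groups had it well above background on each of its 3 arrays, and the brightest such probe stood for its gene. The linear model of limma 3.58.1 (lmFit, then eBayes) was fitted over all genes, with Benjamini-Hochberg adjustment at 0.05, two-sided, after the script was tested on simulated data. The methods' unpaired t-test was an alternative. Correlations among members used exact permutation in Python 3.11.15 with numpy 2.4.6. Permuting 3 against 3 arrays cannot give a two-sided p below 0.1, so no such test was run on single genes. Precision is limited by 3 arrays per group. All 9 members matched the RefSeq gene table and 8 had a promoter there. Named were every member and probe, genes of the pathway lists at an unadjusted p under 0.05, the other NADPH oxidase and nitric oxide synthase genes (except 1 that is not reported here), and the 5 genes most like Duox2 and Cybb; Slc7a1, Cat, Lpo, Pxdn and the markers without a probe above background were named after their values were seen. The members and gene lists were chosen with earlier results of these data known.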

Additional observations from a re-analysis of the deposited data

How the results depend on the processing

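The 8 tested members kept their direction under 18 alternatives, which changed the background correction, normalization, probe filter, choice of probe, test, blocks or arrays, except that Noxo1 turned to -0.15 as arrays 6, 7 and 8 minus arrays 5, 10 and 11, to -0.061 without RG@M-γ-CD replicate 1 and to -0.085 without arrays 5 and 8, and Cyba turned to 0.015 without RG@M-γ-CD replicate 2. With 1 array left out, Noxo1 lay between -0.061 and 0.16 and Cyba between -0.64 and 0.015. The setting without arrays 5 and 8 was chosen after seeing the data. No member passed the adjusted threshold under any alternative. Over the whole array, 0 genes passed it by the labels, 5 as arrays 6, 7 and 8 minus arrays 5, 10 and 11, and 0 to 202 when 1 array was left out, the higher number when RG@M-γ-CD replicate 1 was missing. With 1 array left out, the median of the members lay between -0.89, where RG@M-γ-CD replicate 1 was missing, and -0.51, where PBS replicate 1 was. Nos2 ranged from -2.62 (slide row as a block) to -0.98, Duox2 from -1.33 to -0.69, Duoxa2 from -1.80 to -0.66 (without RG@M-γ-CD replicate 2), Nox1 from -0.86 to -0.15, Cybb from -1.02 to -0.30 (without RG@M-γ-CD replicate 2) and Ncf1 from -1.06 to -0.27. With the slide row as a block, Nos2 (-2.62), Nox1 (-0.86), Cybb (-1.02) and Ncf1 (-1.06) compare RG@M-γ-CD with PBS replicate 1 alone, by construction. The cause of the other shifts was not tested. The replicate numbers are not said to pair animals. Samples with the same number had deviations from their group means that correlated at r = -0.34, -0.34 and 0.20. With 3 arrays per group these values cannot decide whether the numbers pair the samples. With a replicate block 0 genes passed. The median of the members is then -0.66 by construction, since such a block cannot move a difference in a balanced design. The methods' t-test called 0 genes after adjustment. Nox4 lay near background and had only a value with no filter on dim probes, 0.14, or in fits on other sets of arrays (0.63 without RG@M-γ-CD replicate 1).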
